A study of Mus musculus with 9 samples.

Results

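The proteasome is the cell's main ATP-dependent protease for proteins tagged with ubiquitin, and its subunits and regulators were followed here in the ventral hippocampus of mice exposed to restraint and to exercise. Members were all genes whose symbols start with Psma, Psmb, Psmc, Psmd, Psme, Psmf or Psmg followed by a digit and whose mean over the 9 libraries was at least 1 CPM, a CPM being a count scaled to the library total. The interferon-inducible subunits Psmb8 and Psmb9 and genes marked as pseudogenes were left out by name. This gave 47 of the 40213 genes in the count files. The members nearest above the level of 1 CPM were Psme2b at 1.28 CPM and Psmc3ip at 2.41 CPM. Those nearest below it were Psma8, the testis form of an alpha subunit, at 0.30 CPM and Psmb11, the thymus form of a beta subunit, at 0.13 CPM.

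Total RNA was sequenced from 9 male wild-type C57BL/6J mice, 3 per group, aged 8 weeks when they were housed. SUS_LE mice were classed as susceptible after restraint for 2 hours a day on 14 days, and then ran on a treadmill at low intensity for 2 weeks. SUS mice were restrained in the same way, were also classed as susceptible, and stayed sedentary. SED mice were sedentary and had neither treatment. The SUS_LE and SUS groups therefore hold only mice selected as susceptible, and the labels used here do not give the score that selected them or the time between the last session and dissection. Each library is labelled as a separate mouse, and all carry the same batch number. SUS_LE against SUS addresses what exercise added in stressed mice. SUS against SED addresses stress with selection. The exercised mice were also set beside the untreated ones. The comparisons share libraries in pairs, so their fold changes are not independent.

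Library totals ran from 14172344 to 15582304 counts. Markers of hippocampal neurons were present in every library. Choroid plexus transcripts, which come from tissue next to the ventral hippocampus, varied most: the summed level of 8 markers was 119, 1632 and 89.7 CPM in SUS_LE mice, 52.1, 2872 and 6551 CPM in SUS mice, and 4694, 3849 and 3195 CPM in SED mice. The 3 libraries lowest in Ttr, the carrier protein made by choroid plexus, were SUS 1, SUS_LE 3 and SUS_LE 1. The main counts and the members with the smallest p values are given also without them. That leaves 1 SUS_LE mouse (SUS_LE 2), 2 SUS mice and 3 SED mice, and the lone SUS_LE mouse is assumed to vary like the other groups. In bulk tissue, fewer cells of a type and less RNA per cell cannot be told apart.

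As background, the 26S proteasome joins a barrel, the 20S core, to a cap, the 19S regulatory particle. The core stacks outer rings of alpha subunits (Psma genes), which gate the entrance, on inner rings of beta subunits (Psmb genes), of which Psmb5, Psmb6 and Psmb7 carry the proteolytic sites. The cap holds a ring of ATPases that unfold substrates (Psmc genes) and non-ATPase subunits that bind and remove ubiquitin (Psmd genes). Other activators (Psme genes) and an inhibitor (Psmf1) can take the place of the cap, and chaperones (Psmg genes, Psmd5, Psmd9 and Psmd10) assemble the particle without being part of it. In neurons, proteasomes also degrade synaptic proteins and are known to be regulated by activity.

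Transcription of the constitutive subunits can be raised by NFE2L1 (NRF1), which binds antioxidant response elements, and in human cells by NF-Y, which binds CCAAT boxes. Interferon acts through interferon-stimulated response elements, read here as GAAA, any 2 bases and GAAA. RefSeq promoters (GRCm38.p6, 250 bases before to 50 after the start) were matched by symbol for 40 of the 47 members, giving 44 promoters of 300 bases. The core TGACNNNGC, searched on both strands, was found in 6 of the 44 (13.6%), against 12.4% of 32851 mouse promoters of the same length. The 6 genes were Psmb5, Psmb6, Psmc6, Psmd9, Psmd12 and Psme4. CCAAT was found in 14 member promoters (31.8%), against 37.4% of all promoters. The interferon-stimulated element was found in 5 (11.4%), those of Psmb3, Psmd4, Psmd9, Psme1 and Psmg4, against 3.44% of all promoters. The shares are descriptions without a test. The promoters of the 3 cap subunits with the smallest p values in the comparison of SUS with SED are shown here, with that of the catalytic subunit Psmb5, which holds a response element core. Capitals mark motif matches on either strand.
Psmd4 (chr3:95042565-95042864, minus strand): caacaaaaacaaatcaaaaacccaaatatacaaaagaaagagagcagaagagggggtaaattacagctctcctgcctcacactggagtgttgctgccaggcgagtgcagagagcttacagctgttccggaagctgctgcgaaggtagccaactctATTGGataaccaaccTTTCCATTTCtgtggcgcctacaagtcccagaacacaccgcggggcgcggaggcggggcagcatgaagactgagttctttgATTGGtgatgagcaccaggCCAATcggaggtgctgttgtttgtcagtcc
Psmd14 (chr2:61711444-61711743, plus strand): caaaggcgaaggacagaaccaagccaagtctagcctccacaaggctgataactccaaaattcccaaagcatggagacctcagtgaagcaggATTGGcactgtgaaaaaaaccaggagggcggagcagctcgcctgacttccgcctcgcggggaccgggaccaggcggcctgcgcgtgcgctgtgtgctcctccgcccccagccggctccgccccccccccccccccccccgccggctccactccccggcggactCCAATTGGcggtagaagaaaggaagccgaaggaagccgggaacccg
Psmc5 (chr11:106255935-106256234, plus strand): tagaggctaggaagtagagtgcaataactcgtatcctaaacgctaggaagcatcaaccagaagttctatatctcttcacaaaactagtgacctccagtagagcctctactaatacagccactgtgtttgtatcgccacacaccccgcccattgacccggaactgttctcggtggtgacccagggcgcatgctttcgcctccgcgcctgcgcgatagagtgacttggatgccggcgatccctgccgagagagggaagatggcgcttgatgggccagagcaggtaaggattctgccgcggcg
Psmb5 (chr14:54617946-54618245, minus strand): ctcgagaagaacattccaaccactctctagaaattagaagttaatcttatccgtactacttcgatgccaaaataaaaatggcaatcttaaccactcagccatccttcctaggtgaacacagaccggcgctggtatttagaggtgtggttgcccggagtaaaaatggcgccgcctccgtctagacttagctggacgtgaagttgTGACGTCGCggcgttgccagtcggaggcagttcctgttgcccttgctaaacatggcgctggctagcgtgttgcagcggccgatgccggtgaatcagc
The Psmb5 capitals are the response element core, which begins at position -47 counted from the start. In Psmd4 the run TTTCCATTTC is the interferon-stimulated element read on the other strand, and ATTGG and CCAAT are the CCAAT box on the 2 strands. In Psmd14 a CCAAT match on each strand overlaps in CCAATTGG, just after the start. None of the 3 motifs was found in the Psmc5 window.

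Levels were compared between genes as CPM per kilobase of transcript, averaged over the 9 libraries. The 31 constitutive subunits of core and cap lay within 3.84-fold of each other, between 18.3 CPM per kilobase for Psmd13, a cap subunit, and 70.2 for Psmb7, the trypsin-like catalytic subunit. Their median was 40.4. Psmb10, the inducible counterpart of Psmb7, stood at 7.69 CPM per kilobase. The 7 assembly chaperones were also low, between 4.70 for Psmg3 and 9.10 for Psmg2. Among activators Psme3, which forms a mostly nuclear ring that needs no ubiquitin, reached 39.0 CPM per kilobase, above Psme1 at 27.4 and Psme2 at 10.9, the subunits of the interferon-inducible ring. Psme4, the large single-chain activator, stood at 7.71 and the inhibitor Psmf1 at 6.01. Psme2b, at 1.54, is a near copy of Psme2, and how reads were divided between them is uncertain. Psmc3ip and Psme3ip1 fit the rule on symbols but encode partners and no subunits: Psmc3ip acts in meiotic recombination and Psme3ip1 binds the Psme3 ring.

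**Figure D1:**
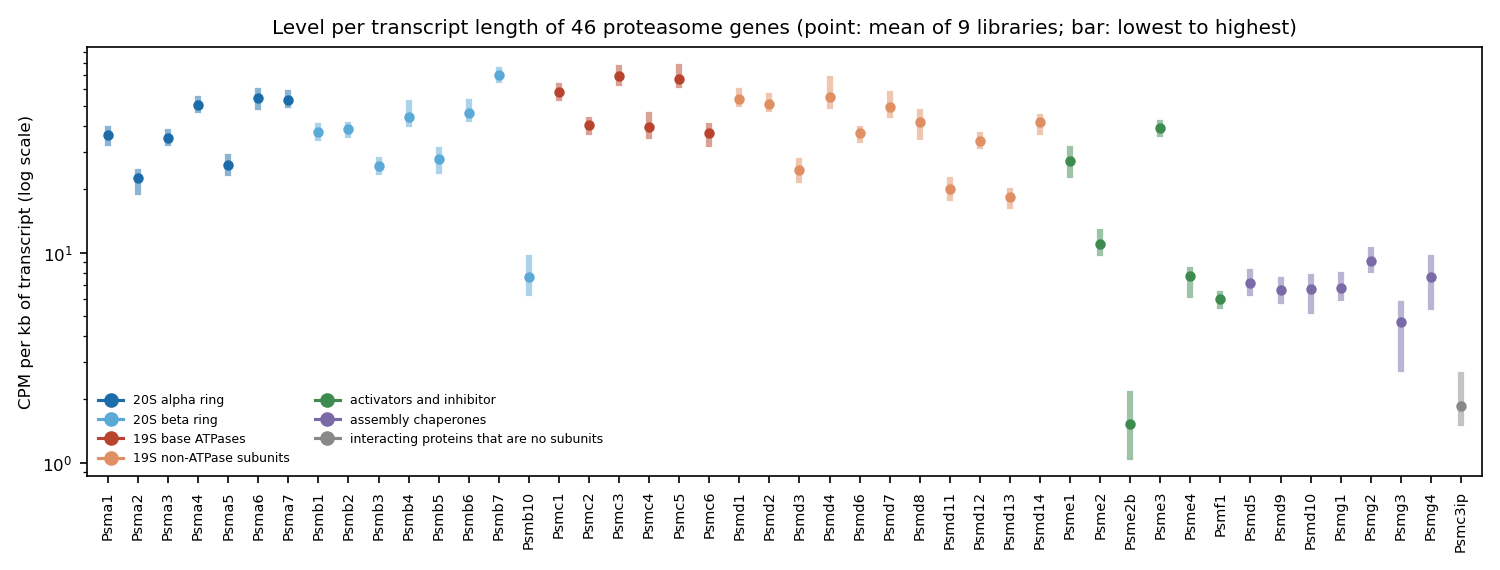
Level of 46 members in CPM per kilobase of transcript (log axis), coloured by role; points are means of the 9 libraries and bars run from the lowest to the highest library. Constitutive core and cap subunits sit between 18.3 and 70.2, and the assembly chaperones between 4.70 and 9.10.

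Members varied little between mice of a group. Their median within-group SD was 0.07 on the log2 scale for the 40 members at 10 CPM or more, against 0.09 for the 9742 tested genes at that level. The summed level of all 47 was 2465, 2458 and 2414 CPM in SUS_LE mice, 2553, 2464 and 2458 CPM in SUS mice, and 2414, 2379 and 2327 CPM in SED mice. Every SUS library was above every SED library in this sum, while SUS_LE 3 was level with SED 1. Counted gene by gene, 31, 29 and 18 of the 47 members were above their own mean of 9 libraries in SUS_LE mice, 34, 27 and 27 in SUS mice, and 21, 14 and 5 in SED mice.

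**Figure D2:**
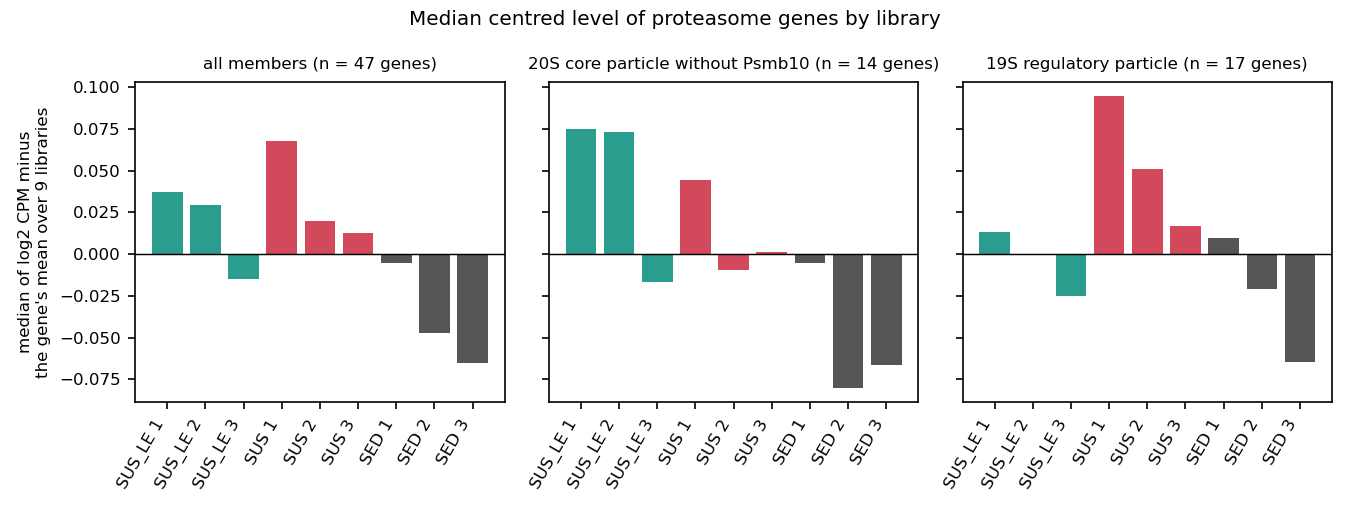
Median log2 CPM, each gene centred on its mean of the 9 libraries, for each mouse in SUS_LE, SUS and SED; panels show all 47 members, the 14 core subunits without Psmb10 and the 17 cap subunits. For all 47 members SUS 1 is highest at 0.07 and SED 3 lowest at -0.07.

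In stressed mice compared with untreated mice, most members had slightly higher values, and no single member passed the test. The fold change in SUS against SED was above 0 for 38 of the 47 members, or 80.9%, against 49.9% of the 16106 genes tested. The median log2 fold change was 0.07 over members and -0.00039 over all tested genes. edgeR's quasi-likelihood test called 0 members and 0% of all genes at an adjusted p of 0.05, with a smallest adjusted p among members of 0.158. DESeq2 and limma voom also called 0 members. DESeq2's independent filtering gave 20 members no adjusted p, and without that filtering it also called 0 members. Over all genes DESeq2 called 163, or 53 without the filtering, and limma voom 0. Without adjustment, edgeR gave p under 0.05 for 8 members (17%), against 13.1% of all genes. Of these, 7 were higher in SUS, a share of 14.9% against 6.83% of genes, and 1 was lower (2.13% against 6.26%). All 3 SUS mice were above all 3 SED mice for 11 members (23.4%, against 9.72% of genes) and below them for 2 members (4.26%, against 8.56%). Without the 3 libraries lowest in Ttr, 36 members were higher, with a median of 0.05.

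By role, all 8 beta subunits had higher values in SUS than in SED, with a median log2 fold change of 0.11. So did 6 of 7 alpha subunits (median 0.05), 5 of 6 cap ATPases (0.07), 9 of 11 non-ATPase cap subunits (0.08) and 5 of 6 activators and inhibitor (0.10). The assembly chaperones were divided, 4 of 7 higher with a median of 0.00076. No member of any role passed the adjusted threshold.

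**Figure D3:**
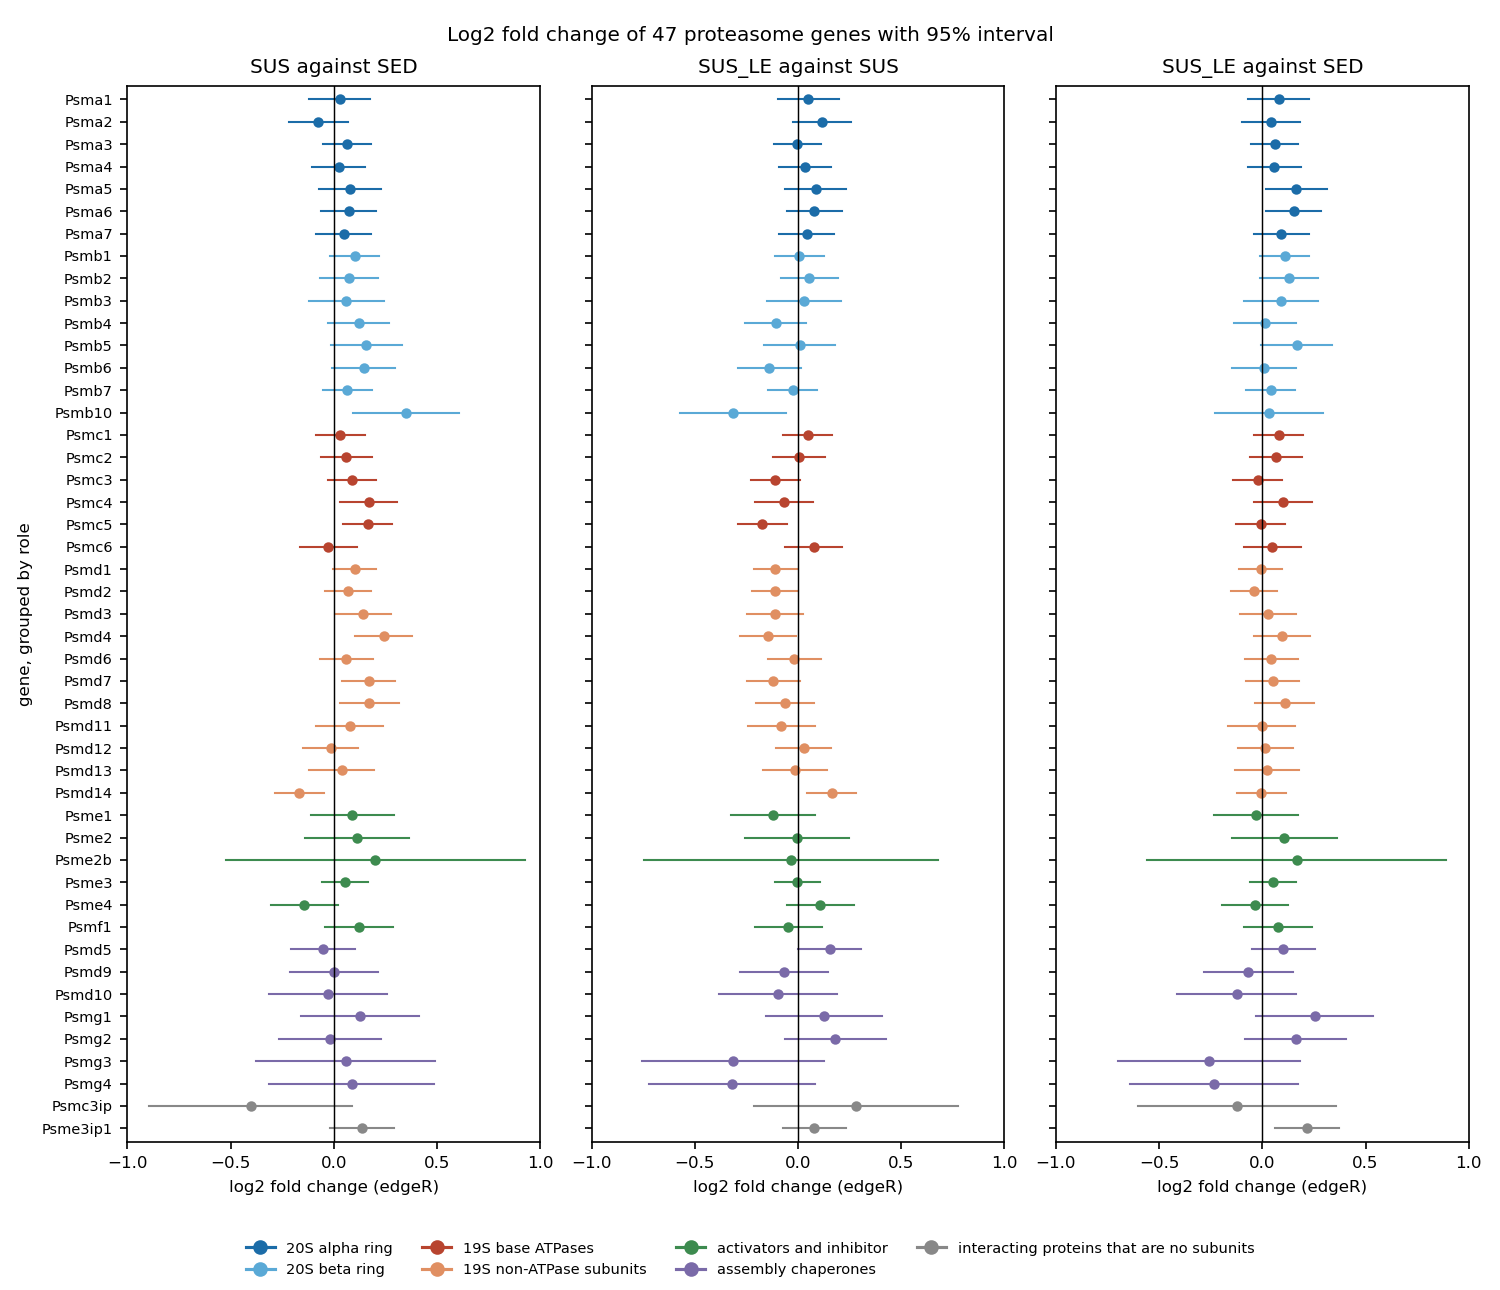
Log2 fold change of each member with its 95% interval in the 3 comparisons, members grouped by role. In SUS against SED 38 of 47 points lie above 0, in SUS_LE against SUS 21, and in SUS_LE against SED 34.

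Psmd4, the cap's ubiquitin receptor (Rpn10), had the smallest p of all members. It stood at 75.1, 70.5 and 72.1 CPM in SUS_LE mice, 88.8, 73.8 and 78.3 CPM in SUS mice, and 68.7, 68.5 and 66.6 CPM in SED mice. SUS 1 was highest, and every SUS and SUS_LE value was above every SED value. The log2 fold change was 0.24 (SE 0.0655) in SUS against SED, with an edgeR adjusted p of 0.158. It was 0.16 without the 3 libraries lowest in Ttr. In SUS_LE against SUS it was -0.15 (SE 0.0651, adjusted p = 0.330 by edgeR), and those groups overlapped. Over 21 alternative settings, left-out libraries included, the log2 fold change ran from 0.16 to 0.30 in SUS against SED. In SUS_LE against SUS it ran from -0.21 to -0.07.

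Psmc5, an ATPase of the cap (Rpt6) that is phosphorylated in active neurons, stood at 87.1, 82.4 and 84.8 CPM in SUS_LE mice, 101, 94.4 and 91.2 CPM in SUS mice, and 85.5, 88.2 and 82.3 CPM in SED mice. The 3 SUS mice were above all 6 others. The log2 fold change was 0.16 (SE 0.0566) in SUS against SED and -0.17 (SE 0.0565) in SUS_LE against SUS, with edgeR adjusted p values of 0.225 and 0.186. In SUS_LE against SED it was -0.0088, with a 95% interval of -0.13 to 0.11. Without the 3 libraries lowest in Ttr it was 0.12 in SUS against SED and -0.17 in SUS_LE against SUS. Over 21 alternative settings it ran from 0.12 to 0.19 in the former and from -0.21 to -0.13 in the latter.

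Psmd14, the deubiquitinase of the cap (Rpn11) that cuts ubiquitin chains off substrates, had the opposite order. It stood at 67.4, 67.4 and 65.6 CPM in SUS_LE mice, 61.5, 59.96 and 57.5 CPM in SUS mice, and 68.0, 66.9 and 66.2 CPM in SED mice. The 3 SUS mice were below all 6 others. The log2 fold change was -0.17 (SE 0.0565) in SUS against SED and 0.16 (SE 0.0564) in SUS_LE against SUS, with edgeR adjusted p values of 0.216 and 0.205. SUS_LE and SED overlapped, with a log2 fold change of -0.0047 and a 95% interval of -0.12 to 0.11. Without the 3 libraries lowest in Ttr, Psmd14 had -0.19 in SUS against SED and 0.20 in SUS_LE against SUS. Over 21 alternative settings Psmd14 ran from -0.19 to -0.12 in the former and from 0.10 to 0.20 in the latter. Psmd11, the cap subunit Rpn6 that clamps core and cap together, stood at 54.3, 52.0 and 61.5 CPM in SUS_LE mice, 62.8, 60.8 and 53.9 CPM in SUS mice, and 59.3, 57.4 and 51.6 CPM in SED mice. Its groups overlapped in all 3 comparisons.

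Psmb10, the inducible subunit that replaces Psmb7 in immunoproteasomes, had the largest fold change of the beta ring in both comparisons with SUS, and not in SUS_LE against SED, where it was 0.03. It stood at 9.51, 8.57 and 10.1 CPM in SUS_LE mice, 12.3, 11.9 and 10.9 CPM in SUS mice, and 8.99, 10.1 and 8.45 CPM in SED mice. The 3 SUS mice were above all 6 others. The log2 fold change was 0.35 (SE 0.1233) in SUS against SED and -0.32 (SE 0.1227) in SUS_LE against SUS, with edgeR adjusted p values of 0.235 and 0.269. Without the 3 libraries lowest in Ttr they were 0.31 and -0.40. Over 21 alternative settings they ran from 0.25 to 0.42 and from -0.40 to -0.21. As a share of Psmb10 and Psmb7 together, per kilobase, Psmb10 made up 9.25%, 8.21% and 10.3% in SUS_LE mice, 11.4%, 11.6% and 10.1% in SUS mice, and 9.37%, 9.97% and 8.48% in SED mice. The SUS share was above the SED share in every mouse and overlapped with that of SUS_LE.

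Psmb10 is induced by interferon, and other interferon-induced genes were read beside it. Of 15 tested genes of that kind, Psmb8 among them, 2 were higher in SUS than in SED, with a median log2 fold change of -0.16. In SUS_LE against SUS 13 were higher, with a median of 0.44. Their summed level was 177, 199 and 232 CPM in SUS_LE mice, 161, 150 and 168 CPM in SUS mice, and 175, 166 and 160 CPM in SED mice. Psmb8, the inducible counterpart of Psmb5, stood at 1.71, 2.27 and 2.72 CPM in SUS_LE mice, 1.99, 1.46 and 1.71 CPM in SUS mice, and 2.32, 2.24 and 2.23 CPM in SED mice. Psmb9, also listed, did not pass the expression filter and was not tested. Its values were 0.96, 0.65 and 0.75 CPM in SUS_LE mice, 0.48, 0.62 and 0.55 CPM in SUS mice, and 0.28, 0.21 and 0.54 CPM in SED mice. No gene of this list passed the adjusted threshold of edgeR in any comparison.

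For the constitutive catalytic subunits the groups overlapped in every comparison. Psmb5, the chymotrypsin-like site, stood at 27.7, 26.3 and 24.2 CPM in SUS_LE mice, 25.7, 24.9 and 27.1 CPM in SUS mice, and 24.9, 22.1 and 22.7 CPM in SED mice. SED 2 and SED 3 were the lowest libraries. The log2 fold change was 0.16 in SUS against SED and 0.17 in SUS_LE against SED, with edgeR adjusted p values of 0.427 and 0.764. Psmb6, the caspase-like site, stood at 36.8, 35.2 and 34.7 CPM in SUS_LE mice, 41.3, 35.7 and 40.4 CPM in SUS mice, and 37.1, 34.3 and 34.8 CPM in SED mice. SUS 1 and SUS 3 were above all other libraries, and SUS 2 was within the range of SED. Psmb7 stood at 82.6, 84.8 and 77.6 CPM in SUS_LE mice, 84.2, 79.7 and 85.5 CPM in SUS mice, and 77.0, 80.7 and 80.7 CPM in SED mice, and its groups overlapped throughout. Psmb7 shares 405 exonic bases with Nek6 on the other strand, and the strand setting of the counts is not given in the sources used here. Other members overlap genes too, such as Psmc3ip with Mlx on the other strand (385 bases). On the same strand, Psmb5 overlaps Mir686 (109 bases), Psmd1 overlaps Gm21972 (301) and Psmg3 overlaps Gm26938 (237).

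**Figure D4:**
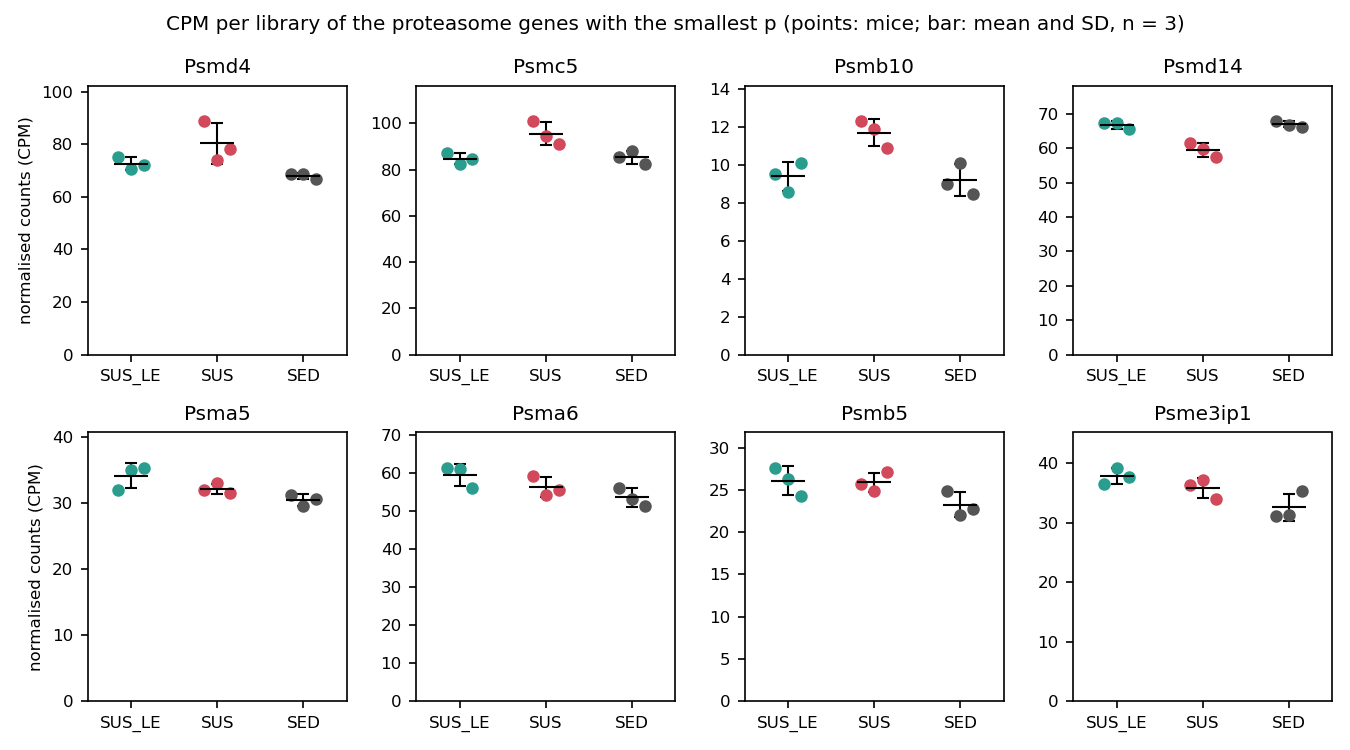
CPM of 8 members in each mouse (points), with the group mean and SD as lines (n = 3), in SUS_LE, SUS and SED. The 8 were chosen for the smallest p values in comparisons that share libraries. The 3 SUS mice lie above all others for Psmc5 and Psmb10 and below all others for Psmd14. The share of all genes with such an order is not given here.

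The activators and the inhibitor overlapped between groups with 1 exception. Psmf1 stood at 23.7, 23.6 and 21.8 CPM in SUS_LE mice, 24.1, 23.7 and 23.6 CPM in SUS mice, and 21.6, 22.8 and 21.2 CPM in SED mice. Every SUS value was above every SED value, with a log2 fold change of 0.12 (SE 0.0789, edgeR adjusted p = 0.535). Psme4 stood at 53.7, 49.6 and 49.2 CPM in SUS_LE mice, 40.9, 49.9 and 50.8 CPM in SUS mice, and 52.5, 50.3 and 53.5 CPM in SED mice. SUS 1 was the lowest of the 9 libraries, and the groups overlapped. Psme3 stood at 106, 106 and 104 CPM in SUS_LE mice, 104, 109.8 and 103 CPM in SUS mice, and 101, 105 and 98.0 CPM in SED mice. Psme1 stood at 25.9, 31.0 and 31.3 CPM in SUS_LE mice, 34.0, 27.3 and 34.6 CPM in SUS mice, and 30.2, 28.2 and 31.7 CPM in SED mice. For Psme3 and Psme1 the groups overlapped in all comparisons. Psme2 stood at 12.0, 9.74 and 10.6 CPM in SUS_LE mice, 11.1, 10.1 and 11.2 CPM in SUS mice, and 10.4, 10.1 and 9.53 CPM in SED mice, and overlapped likewise.

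In exercised stressed mice compared with sedentary stressed mice, members as a whole did not lean to one side, while cap and core differed in their counts. The fold change in SUS_LE against SUS was above 0 for 21 of 47 members (44.7%, against 50.3% of all genes), with a median of -0.0051 over members and 0.0011 over all genes. edgeR called 0 members and 0% of all genes, with a smallest adjusted p of 0.186. DESeq2 and limma voom called 0 members. DESeq2's independent filtering gave 17 members no adjusted p, and without that filtering it also called 0 members. Over all genes DESeq2 called 180, or 73 without the filtering, and limma voom 0. Without adjustment 6 members (12.8%) had p under 0.05 by edgeR, against 13.7% of genes. Of these, 2 were higher in SUS_LE (4.26%, against 7.2% of genes) and 4 were lower (8.51%, against 6.49%). All SUS_LE mice were above all SUS mice for 5 members (10.6%, against 8.61% of genes) and below them for 7 (14.9%, against 8.38%). Without the 3 libraries lowest in Ttr, which leaves SUS_LE 2 alone against 2 SUS mice, 27 members were higher, with a median of 0.0058. The 5 were Psmb2, Psmd5, Psmd14, Psmg2 and Psmc3ip, and the 7 were Psmb4, Psmb10, Psmc5, Psmd1, Psmd3, Psmd7 and Psmg4.

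By role, 6 of 7 alpha subunits had higher values in SUS_LE than in SUS (median 0.05), and 4 of 8 beta subunits (median -0.0093). Of the cap, 3 of 6 ATPases (median -0.03) and 2 of 11 non-ATPase subunits (median -0.08) were higher. Psmd14 was 1 of those 2. Of activators and inhibitor 1 of 6 was higher (median -0.02), and of chaperones 3 of 7 (median -0.07). Within each library the median centred log2 level of the 14 core subunits without Psmb10 was set against that of the 17 cap subunits. Core minus cap was 0.06, 0.07 and 0.0083 in SUS_LE mice, -0.05, -0.06 and -0.02 in SUS mice, and -0.01, -0.06 and -0.0020 in SED mice. All SUS_LE values were above 0 and all others below it, with SUS_LE 3 close to SED 3. This grouping was made with the values known and has no test. In the main fit the core median in SUS_LE against SUS was 0.03 and the cap median -0.07. With GC and length trends removed, they were 0.0049 and -0.03. In SUS_LE 2 alone against SUS 2 and SUS 3, the libraries left without the 3 lowest in Ttr, they were 0.06 and -0.02.

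In exercised stressed mice compared with untreated mice, values again leaned upward. The fold change in SUS_LE against SED was above 0 for 34 of 47 members (72.3%, against 52.9% of all genes), with a median of 0.05 over members and 0.0085 over all genes. All 7 alpha and all 8 beta subunits were higher, against 4 of 6 ATPases, 7 of 11 non-ATPase cap subunits, 4 of 6 activators and inhibitor and 3 of 7 chaperones. The cap as a whole had a median of 0.03. With the choroid plexus score as a covariate its median was -0.02, with 2 of 6 ATPases and 4 of 11 non-ATPase subunits higher. In that setting 7 of 7 alpha and 5 of 8 beta subunits were higher, and the core without Psmb10 had a median of 0.11. All 8 choroid plexus markers were lower in SUS_LE than in SED without overlap, so the fit can hardly separate score from group here. With SUS_LE 2 as the only exercised mouse, once the libraries lowest in Ttr were left out, 34 members were higher, and the medians were 0.11 for the core without Psmb10 and 0.02 for the cap. edgeR called 0 members and 0% of all genes, with a smallest adjusted p of 0.617. DESeq2 and limma voom called 0 members, and over all genes 16 and 0. Without adjustment 3 members (6.38%) had p under 0.05 by edgeR, all higher, against 6.64% of genes in either direction. The share of genes was 2.79% for higher and 3.86% for lower, where members numbered 0. All SUS_LE mice were above all SED mice for 10 members (21.3%, against 7.54% of genes) and below them for 0 (against 8.64%).

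The 3 members were Psme3ip1, Psma6 and Psma5. Psme3ip1 stood at 36.5, 39.2 and 37.6 CPM in SUS_LE mice, 36.4, 37.1 and 34.0 CPM in SUS mice, and 31.1, 31.3 and 35.2 CPM in SED mice. Its log2 fold change in SUS_LE against SED was 0.22 (SE 0.0733), with no overlap and an edgeR adjusted p of 0.617. Psma5, a subunit of the outer ring, stood at 31.9, 35.0 and 35.3 CPM in SUS_LE mice, 32.0, 33.0 and 31.5 CPM in SUS mice, and 31.2, 29.5 and 30.5 CPM in SED mice. All SED values were below all others, and the log2 fold change was 0.16 (SE 0.0711, edgeR adjusted p = 0.705). Psma6, also of the outer ring, stood at 61.5, 61.0 and 56.1 CPM in SUS_LE mice, 59.2, 54.2 and 55.6 CPM in SUS mice, and 56.2, 53.2 and 51.4 CPM in SED mice. Its groups overlapped through SUS_LE 3 and SED 1, with a log2 fold change of 0.15 (SE 0.0644, edgeR adjusted p = 0.700). With SUS_LE 2 as the only exercised mouse the fold changes were 0.27 for Psme3ip1, 0.20 for Psma5 and 0.19 for Psma6.

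Psmg1 and Psmg2, which pair to start the alpha ring, had the largest positive fold changes of the 7 chaperones in SUS_LE against SED. Psmg1 stood at 8.14, 7.80 and 7.28 CPM in SUS_LE mice, 7.63, 6.59 and 7.06 CPM in SUS mice, and 6.60, 6.52 and 6.35 CPM in SED mice. Its log2 fold change in SUS_LE against SED was 0.25 (SE 0.1351, edgeR adjusted p = 0.768). Psmg2 stood at 10.9, 10.1 and 10.3 CPM in SUS_LE mice, 9.69, 9.16 and 8.70 CPM in SUS mice, and 9.55, 9.11 and 9.26 CPM in SED mice. For both, every SUS_LE mouse was above every SED mouse. Psmg3 and Psmg4, which form a pair of their own, had log2 fold changes of -0.26 and -0.23 in the same comparison, with standard errors of 0.2113 and 0.1937. These 4 genes were singled out after their values were seen.

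GC content moved with the fold changes of all genes, members included. Tested genes with a matched transcript were divided at GC contents of 47.1% and 53.4% into 3 classes of equal size. In the lowest class 29.4% of genes were higher in SUS than in SED, in the middle class 49.5% and in the highest 70.1%. Of members in the same classes, 7 of 15, 17 of 18 and 13 of 13 were higher. In SUS_LE against SUS the order was turned round: 71.8%, 52.8% and 27.9% of genes and 11 of 15, 7 of 18 and 2 of 13 members were higher. In SUS_LE against SED the shares of genes were 54.8%, 55.1% and 50.9%, and of members 11 of 15, 13 of 18 and 9 of 13. Psmd14 had a GC content of 43.2% (lowest class), Psmc5 51.6% (middle class), Psmd4 54.9% and Psmb10 56.5% (both highest class). With GC and length trends removed from each library, 39 members were higher in SUS against SED, 18 in SUS_LE against SUS and 32 in SUS_LE against SED. The median over members was then 0.05, -0.02 and 0.04.

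**Figure D5:**
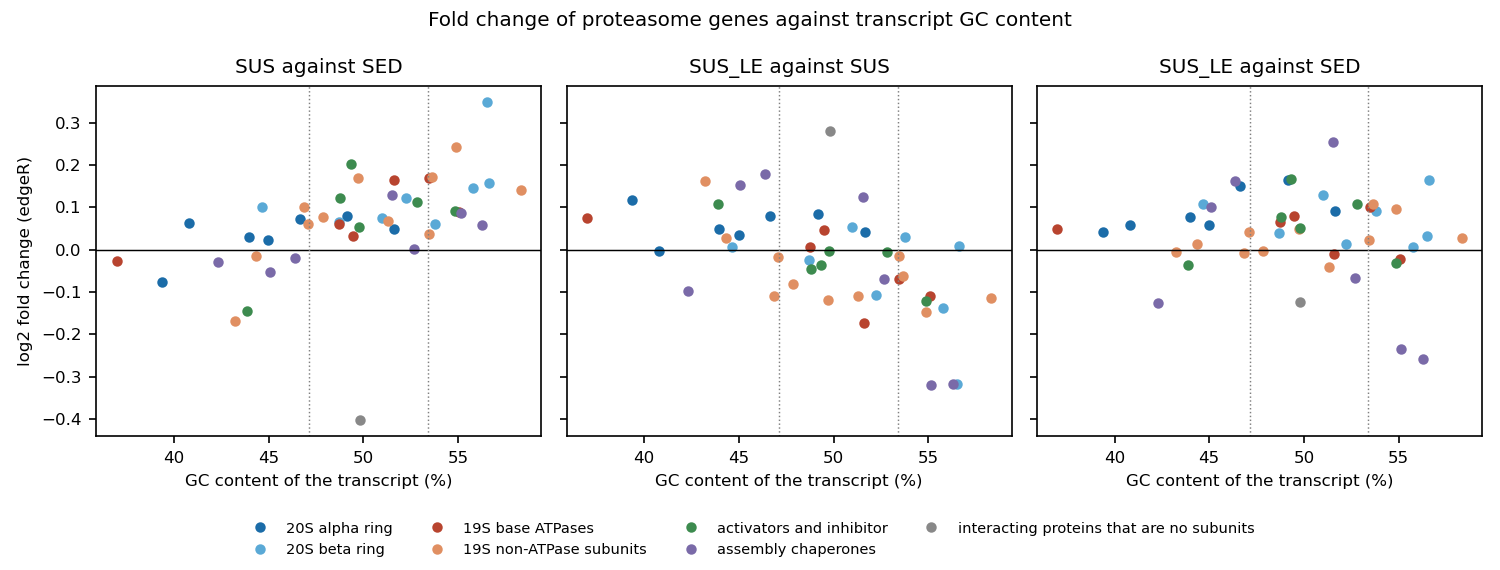
Log2 fold change of 46 members (points, coloured by role) against GC content of the transcript in percent in the 3 comparisons; dotted lines at 47.1% and 53.4% divide the GC classes. In SUS against SED all 13 members of the highest class lie above 0, and in SUS_LE against SUS 2 of 13.

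Cell type markers were read beside these results. All 6 neuron markers were higher in SUS than in SED (median log2 fold change 0.08) and in SUS_LE than in SED (0.09). Their summed level ran from 5725 to 6135 CPM in SUS_LE mice, from 5504 to 6135 CPM in SUS mice and from 5513 to 5627 CPM in SED mice. None of the 3 astrocyte markers was higher in SUS than in SED (median -0.13), nor of the 3 oligodendrocyte markers (-0.17). In SUS_LE against SUS all 3 astrocyte markers (0.15) and all 3 oligodendrocyte markers (0.11) were higher. Markers of hippocampal subfields and of microglia were divided. Prox1, of dentate granule neurons, stood at 107, 99.9 and 92.9 CPM in SUS_LE mice, 87.9, 75.5 and 74.3 CPM in SUS mice, and 108, 88.9 and 118 CPM in SED mice. Every SUS value was below all others, with log2 fold changes of -0.41 in SUS against SED and 0.34 in SUS_LE against SUS (edgeR adjusted p = 0.178 and 0.211). C1ql2, also of dentate granule neurons, had -0.16 and 0.18, and Fibcd1, of CA1 neurons, had 0.05 and -0.11. P2ry12, of microglia, had -0.18 and 0.22, against 0.15 and -0.02 for Cx3cr1 and 0.01 and 0.0041 for Csf1r. No marker passed the adjusted threshold of edgeR. The part of cell composition in the members' values was not tested.

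Of 29 partners of the proteasome listed beside the members, 28 were found and tested, and 0 passed the adjusted threshold of edgeR in any comparison. In SUS against SED 17 of 28 were higher (median 0.05), with unadjusted p under 0.05 by edgeR for 5 higher and 1 lower. Of all tested genes, 6.83% were higher and 6.26% lower at that p. In SUS_LE against SUS 15 were higher (median 0.01), with 0 higher and 1 lower at that p, against 7.2% and 6.49% of genes. In SUS_LE against SED 21 were higher (median 0.04), with 3 and 1, against 2.79% and 3.86% of genes. Nfe2l1, the transcription factor of the constitutive subunits, stood at 209, 224 and 209.5 CPM in SUS_LE mice, 242, 226 and 247 CPM in SUS mice, and 229, 227 and 227 CPM in SED mice. All SUS_LE values were below all others, with a log2 fold change of -0.15 (SE 0.0501, edgeR adjusted p = 0.186) against SUS and -0.09 against SED. Nfe2l2, the related factor of oxidative stress, stood at 13.3, 11.9 and 11.6 CPM in SUS_LE mice, 9.83, 11.9 and 16.1 CPM in SUS mice, and 15.2, 16.8 and 15.1 CPM in SED mice, with SUS spread over the widest range.

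Rps27a, which encodes ubiquitin fused to a ribosomal protein, stood at 99.2, 94.4 and 98.2 CPM in SUS_LE mice, 97.3, 98.5 and 89.0 CPM in SUS mice, and 87.1, 80.8 and 90.7 CPM in SED mice. Every SUS_LE value was above every SED value, while SUS 3 was within the range of SED. Its log2 fold change was 0.14 (SE 0.0594, edgeR adjusted p = 0.322) in SUS against SED and 0.17 (SE 0.0593, edgeR adjusted p = 0.617) in SUS_LE against SED.

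Usp14, a deubiquitinase that docks on the cap, stood at 128, 133 and 133 CPM in SUS_LE mice, 117, 132 and 117 CPM in SUS mice, and 119.9, 123 and 121 CPM in SED mice. Pomp, the chaperone that matures the core, had log2 fold changes of 0.15 for SUS over SED, -0.03 for SUS_LE over SUS and 0.12 for SUS_LE over SED. Adrm1, a ubiquitin receptor of the cap, had 0.11, -0.02 and 0.09 in the same comparisons. Ubqln4, a shuttle factor, had 0.13 in SUS against SED, and Zfand5, a proteasome activator, 0.11 in SUS_LE against SUS. For comparison, the 8 subunits of the CCT chaperonin were all higher in SUS than in SED with a median of 0.03, and 8 of 10 subunits of the COP9 signalosome, a relative of the cap, with a median of 0.08. In SUS_LE against SED, all 10 COP9 subunits and 6 of 8 CCT subunits were higher.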

How the data were processed

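Total RNA of ventral hippocampus was read as whole-number counts per gene symbol, 1 deposited table per library. The counts were made by the authors with fastp, STAR and Salmon on GRCm39, per the submitters' processing notes; versions, annotation, strand setting, use of molecular identifiers and rounding are not given in the sources used here. Column headers number the exercised libraries 2 to 4 where the labels have 1 to 3; the labels' numbers are used.

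Counts were analysed in R 4.3.3 with edgeR 4.0.16: expression filter by group (16106 genes kept, 99.9% of counts), TMM scaling, and a robust quasi-likelihood fit to all 9 libraries with group as the term (common biological coefficient of variation 0.0845). P values were adjusted by Benjamini-Hochberg over all tested genes, with 0.05 as the threshold. CPM are TMM-scaled; log2 CPM used a prior count of 2. Alternatives used DESeq2 1.42.0, limma 3.58.1 voom with quality weights, other scalings and filters, 2 groups only, the replicate number as a block, a choroid plexus score, GC and length offsets (splines with 5 degrees of freedom; values from GENCODE M21 on GRCm38, found by symbol for 91.3% of the genes tested), and leaving out libraries. Transcript length came from the same annotation. Length and GC content were those of the longest transcript of the best APPRIS rank, a ranking of main isoforms. Levels per kilobase depend on that choice. The fit was tested on simulated counts. No library pair of 1 group agreed within sampling noise (chi-square per degree of freedom 2.70 to 14.6).

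Values of every library are given for the 4 members with the smallest p in each comparison and for Psmb5, Psmb6, Psmb7, Psmb10, Psme1 to Psme4, Psmf1, Psmd11 and Psmd14; of the partners, the 3 with the smallest p in each comparison and Nfe2l1, Pomp, Usp14 and Adrm1 are named, apart from some that are not reported here. The members and lists were chosen with earlier results of these data known. The count of members with a higher value, DESeq2 without its independent filtering (0 members called) and the lists without Psmc3ip, Psme3ip1 and Psme2b were added after seeing the data. These genes aside, 36 of 44 members were higher in SUS against SED, 19 in SUS_LE against SUS and 32 in SUS_LE against SED.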

Additional observations from a re-analysis of the deposited data

How the results depend on the processing

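The number of members past the threshold stayed at 0 in all comparisons under DESeq2, limma voom, other scalings, a stricter filter, 2 groups only, GC and length offsets and every left-out library, the lowest and highest being 0. With no filter on low counts the number was 1 in SUS against SED (Psmd4, log2 fold change 0.24, edgeR adjusted p = 0.0295). It was also 1 there for any difference among the groups, a test without a single fold change. With the choroid plexus score as a covariate it was 1 in SUS_LE against SUS (Psmc5, log2 fold change -0.21, edgeR adjusted p = 0.0462). Over all genes, 435 were called in SUS_LE against SUS with the score, or 2.70% of genes against 2.13% of members. With no filter, 297 genes were called in SUS against SED. The number of genes tested with no filter is not given here, nor the genes called for any difference among the groups. Whether Psmd4 stands out from other genes in that setting therefore cannot be said. The cause of these calls was not tested. DESeq2's smallest adjusted p was 0.0542, for Psmd4 in SUS against SED; its filtering gave 20 and 17 members no adjusted p in SUS against SED and SUS_LE against SUS. With each library left out in turn, the median log2 fold change of the members ran from 0.05 to 0.08 in SUS against SED, from -0.02 to 0.01 in SUS_LE against SUS and from 0.04 to 0.06 in SUS_LE against SED. The members higher numbered 35 to 40, 19 to 27 and 32 to 37. Under the other alternatives they numbered 36 to 39, 17 to 27 and 28 to 35. Core minus cap kept its sign in SUS_LE against SUS (0.04 to 0.15) and in SUS_LE against SED (0.04 to 0.13) and not in SUS against SED (-0.03 to 0.0037). The low end in SUS_LE against SUS came with GC and length trends removed, against 0.10 in the main fit. Over 10408 genes, same-numbered deviations correlated at -0.16, 0.03 and -0.09 between SUS and SED. They correlated at 0.31, 0.22 and -0.13 between SUS_LE and SUS, and at -0.07, -0.12 and -0.10 between SUS_LE and SED. With different numbers, SUS_LE 2 and SUS 3 had 0.28, and SUS_LE 2 and SUS 1 had -0.40. The summed choroid plexus markers were 1632 CPM in SUS_LE 2, 6551 CPM in SUS 3 and 52.1 CPM in SUS 1. The part of choroid plexus content in these correlations was not tested. The correlations do not settle whether replicate numbers pair mice, and the column headers number the exercised libraries otherwise. With the replicate block, 0 members were called, and the median log2 fold change was 0.07, -0.0071 and 0.05 in the 3 comparisons. Depth limits what can be said of Psme2b and Psmc3ip, the members nearest 1 CPM.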
